A study of Xenopus laevis with 8 samples.

Results

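The insulin-like growth factor genes of Xenopus laevis were followed in anterior endoderm in which an activatable Neurogenin 3 was switched on or left off. Members were the probe sets whose gene symbol, in lower case and without the homeolog mark .L or .S, was igf1, igf2, igf3, igf1r, igf2r, insr, irs1 or irs2, or began with igfbp. The rule found 16 of 32539 probe sets, for 10 of 11303 named genes. They were 4 ligand probe sets (igf2.L, igf2.S and 2 for igf3.L), 6 for receptors and their adapter (igf1r.S, insr.L and 4 for irs1.L) and 6 for binding proteins (igfbp1.L, igfbp1.S, 2 for igfbp5.L and 2 for igfbpl1.S). Among the named probe sets, 0 carried igf1, igf2r or irs2, so these genes were not analysed here.

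The arrays with dexamethasone (DEX, 4 arrays) came from embryos kept in 10 µM of this synthetic glucocorticoid for 4 hours from stage 12, and the others (no_DEX, 4 arrays) from embryos kept without it. Before that, all embryos of both groups had been injected with Ngn3-GR mRNA into 2 vegetal blastomeres of the dorsal side when they had 8 cells, and anterior endoderm was dissected at stage 15. Ngn3-GR is a fusion of the proneural factor Neurogenin 3 with a glucocorticoid receptor domain, so the hormone both activates the fusion and can reach the embryo's own receptor. Embryos given the hormone without the fusion were not analysed here, and these effects cannot be told apart. Each group has biological replicates numbered 1 to 4 in the labels, which name no clutch, day or number of embryos. Probe sets with the symbol neurog3 numbered 0, so the injected gene was not checked.

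Insulin-like growth factors are small secreted hormones related to insulin. They bind the receptor tyrosine kinase Igf1r, which signals through docking proteins such as Irs1 to the PI3K, Akt and mTOR branch and to the Ras and MAP kinase branch, while secreted binding proteins hold the ligands outside the cell. In Xenopus embryos, raised IGF signalling is known to promote head and anterior neural development, and in mammals Igf2 is a main growth factor of the embryo.

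Values are log2 expression from RMA, and changes are DEX minus no_DEX on that scale. Array medians lay between 6.02 and 6.12. The 17 Affymetrix tag controls, whose sequences are not in the sample, gave single values of 2.38 to 4.40 and set the background. Of the 16 family probe sets, 11 had a mean above 4.40, covering igf2.L, igf2.S, igf3.L, igf1r.S, irs1.L and igfbp5.L, and 5 lay at or under it. Levels of different probe sets are not compared with each other, since each has its own probes. The tissue label was read against endoderm markers, of which 21 of 23 measured genes were above background, among them both homeologs of sox17a. Neural plate markers were above background as well, 21 of 23 genes, among them sox2.L and sox3.S. So were 11 of 11 neural crest genes and 15 of 15 epidermis genes. Of all 11303 named genes, 8925 were above background. These counts therefore do not tell endoderm from the other tissues.

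The ligand igf2.L stood higher with dexamethasone in every replicate pair, and its homeolog igf2.S differed much less. The igf2.L probe set Xl2.47110.1.S1_at measured 8.24, 8.19, 7.84 and 8.74 in DEX replicates 1 to 4, against 7.09, 7.57, 7.12 and 8.11 in no_DEX replicates 1 to 4. The groups overlapped, because the no_DEX array of replicate 4 was above the DEX array of replicate 3, yet within each number the DEX array was the higher one. The means were 8.25 ± 0.37 in DEX and 7.47 ± 0.48 in no_DEX (SD, n = 4 each). Within the pairs the changes were 1.15, 0.62, 0.72 and 0.62, a mean of 0.78 ± 0.25 (SD, 4 pairs) or 1.72-fold.

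The igf2 genes were selected on this contrast, by the change of igf2.L between DEX and no_DEX, so these values are a description and carry no test. The value that set igf2.L apart was an adjusted p of 0.0297 in the limma fit with the replicate number as a block, where 0.553% of all probe sets passed, while without the block it was 1.00 and 0.00615% of probe sets passed. With the block and 1 pair left out, the change was 0.66 to 0.83, and the adjusted p was 0.0549 when pair 4 was dropped, 0.0593 when pair 1 was, 0.109 when pair 3 was and 0.123 when pair 2 was. The place of igf2.L past the threshold therefore needed all 4 pairs. Over all probe sets the calls also fell, from 180 to 34, 4, 26 and 120 without pairs 1 to 4. The direction could not turn, since each of the 4 pairs was higher in DEX. In bulk tissue, a change in the number of expressing cells and a change in RNA per cell cannot be told apart.

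The igf2.S probe set Xl2.12101.1.S1_at measured 7.68, 8.31, 7.37 and 7.75 in DEX, against 7.34, 8.26, 7.16 and 7.63 in no_DEX. The arrays of replicate 2 were the highest of both groups and those of replicate 3 the lowest, and the DEX and no_DEX ranges nearly coincided. The changes in pairs 1 to 4 were 0.34, 0.05, 0.21 and 0.12, a mean of 0.18 ± 0.12 (SD, 4 pairs). The change of igf2.L exceeded that of igf2.S by 0.82, 0.58, 0.51 and 0.50 in the 4 pairs, a mean difference of 0.60 ± 0.15. Because igf2.L was selected by its change, this gap partly restates that selection and carries no test. For both homeologs the change was widest in pair 1. Both probe sets were above background on all 8 arrays.

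**Figure D1:**
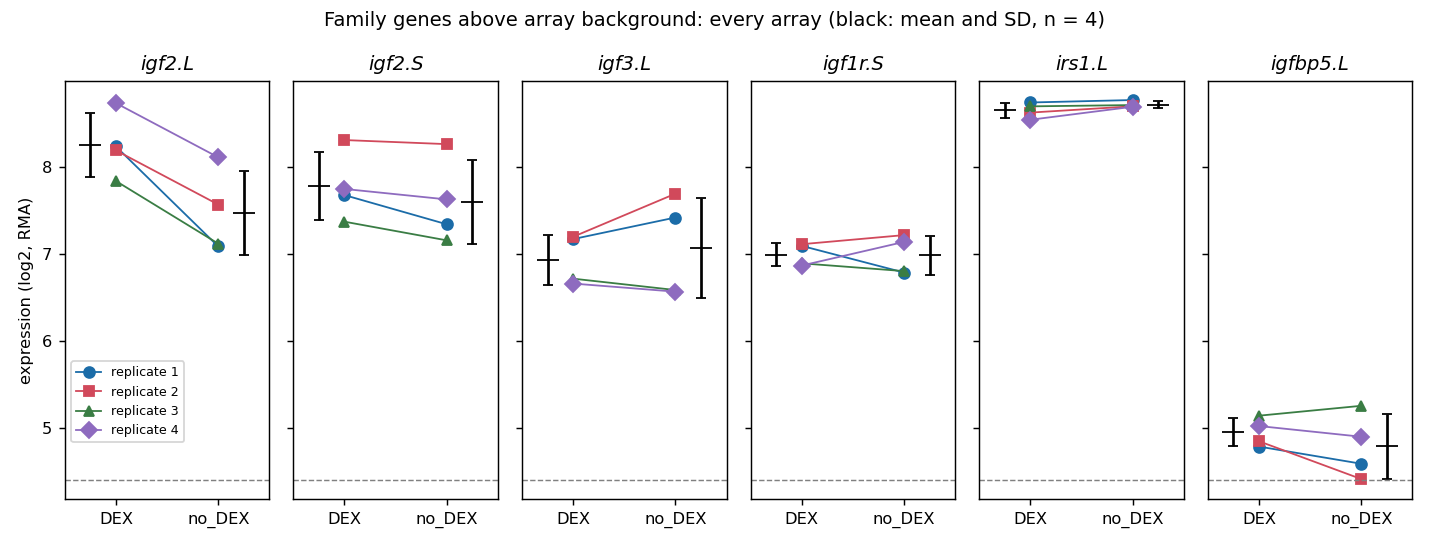
Expression (log2, RMA) of the 6 family genes above array background, 1 panel each, by the brightest probe set of the gene. Coloured points are single arrays, lines join arrays with the same replicate number, black bars are the mean and SD of 4 arrays, and the dashed line is the highest background control at 4.40. For igf2.L all 4 lines are higher at DEX, while for igf3.L the lines of replicates 1 and 2 lie above those of replicates 3 and 4 in both groups.

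The third ligand, igf3.L, an insulin-like growth factor gene described in Xenopus, varied more with replicate number than with treatment. Its brighter probe set, Xl2.12078.1.S1_at, measured 7.17, 7.20, 6.72 and 6.66 in DEX and 7.42, 7.69, 6.59 and 6.57 in no_DEX. Replicates 1 and 2 were above replicates 3 and 4 in both groups, with no overlap between these sets of arrays. The changes were −0.25, −0.50, 0.13 and 0.09, a mean of −0.13 (95% interval −0.40 to 0.14 and adjusted p = 0.726 with the block). The dimmer igf3.L probe set, Xl2.12078.1.S2_at, followed the first over the 8 arrays (Pearson r = 0.99) and changed by −0.15 (adjusted p = 0.666 with the block). No change of igf3.L was detectable with these arrays.

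The receptor gene igf1r.S, for the type 1 IGF receptor, had 7.09, 7.11, 6.89 and 6.87 in DEX and 6.79, 7.22, 6.80 and 7.14 in no_DEX. Its pairs went both ways, at 0.31, −0.10, 0.09 and −0.27, and its mean change was 0.005 (95% interval −0.24 to 0.25 with the block, adjusted p = 0.993). The sign of this value is not settled, since it was −0.00046 with array medians centred. The insulin receptor gene insr.L was within the range of the background controls on every array, at 3.44 ± 0.16 in DEX and 3.32 ± 0.13 in no_DEX.

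The docking protein gene irs1.L was the steadiest member. Its brightest probe set, Xl2.957.1.S2_at, measured 8.74, 8.63, 8.70 and 8.54 in DEX and 8.77, 8.70, 8.71 and 8.69 in no_DEX. All 4 pairs were lower with dexamethasone, but by 0.15 or less each, where 10.3% of all probe sets were lower in 4 of 4 pairs. Its mean change was −0.07 (95% interval −0.24 to 0.11 with the block, adjusted p = 0.790). Over its 4 probe sets the change lay between −0.11 and 0.004, the adjusted p with the block was 0.640 or more, and the spread over 8 arrays was 0.23 to 0.35. The ligand probe sets spread over 1.13 to 1.65 on the same arrays. The irs1.L probe set with the name ending s_at carries probes shared between transcripts, and the probe sets correlated with each other at only 0.06 to 0.61 over 8 arrays, on a spread this small.

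Among the binding protein genes, only igfbp5.L lay above background by its mean. Igfbp5 binds IGFs outside the cell. The probe set Xl2.5266.1.S1_at measured 4.78, 4.85, 5.14 and 5.02 in DEX and 4.59, 4.41, 5.25 and 4.90 in no_DEX. It was higher with dexamethasone in pairs 1, 2 and 4 and lower in pair 3, with a mean change of 0.16 (95% interval −0.07 to 0.39 with the block, adjusted p = 0.585). The second probe set, Xl2.12103.1.A1_at, gave the same mean change of 0.16, with 4 of 4 pairs higher (95% interval −0.02 to 0.35, adjusted p = 0.470), where 10.9% of all probe sets were higher in 4 of 4 pairs. Across the 8 arrays the brighter igfbp5.L probe set ran opposite to igf3.L (Pearson r = −0.91, given as a description over arrays that share their replicate numbers).

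The other binding protein genes were at or under background. In mammalian liver igfbp1 is known to respond to glucocorticoids and to be lowered by insulin. Here igfbp1.L measured 3.64, 3.48, 3.97 and 3.97 in DEX and 3.89, 3.66, 3.78 and 4.25 in no_DEX, and igfbp1.S averaged 2.88 in DEX and 2.97 in no_DEX. The igfbpl1.S probe sets, for an IGFBP-like protein, averaged 3.22 and 2.95 in DEX and 3.27 and 2.87 in no_DEX. Over the 5 family probe sets at or under background, insr.L included, changes lay between −0.13 and 0.12, and the adjusted p with the block was 0.609 or more. At this signal a difference of these genes was not detectable, which does not show that they were unexpressed or unaltered.

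Counted together, 0 of the 14 family probe sets other than igf2 passed without the block, and 0 with it. Of all probe sets 0.00615% passed without the block and 0.553% with it, so 0 of 14 does not set the family apart. At an unadjusted p under 0.05 the count was 0 in both fits, where the share of all probe sets was 4.24% with no block and 12.5% with one. The smallest adjusted p with the block was 0.470. The changes of these 14 ran from −0.15 to 0.16, with a median of −0.05, beside a median of 0.002 over all 32539 probe sets. The groups overlapped for all 16 family probe sets, while 2.76% of all probe sets had groups that did not overlap. By brightest probe set a gene, the median change in pairs 1 to 4 was 0.34, 0.05, 0.21 and 0.12 over the 3 ligand genes, −0.03, −0.07, 0.09 and −0.15 over the 3 receptor and adapter genes, and −0.11, −0.03, 0.04 and −0.15 over the 4 binding protein genes. In each pair the middle ligand was igf2.S, so the ligand median repeats its values. The other medians rest partly on signal at or under background, from insr.L and from all binding protein genes but igfbp5.L. Both igf2 genes were higher in 4 of 4 pairs and igf3.L, by its brighter probe set, in 2.

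**Figure D2:**
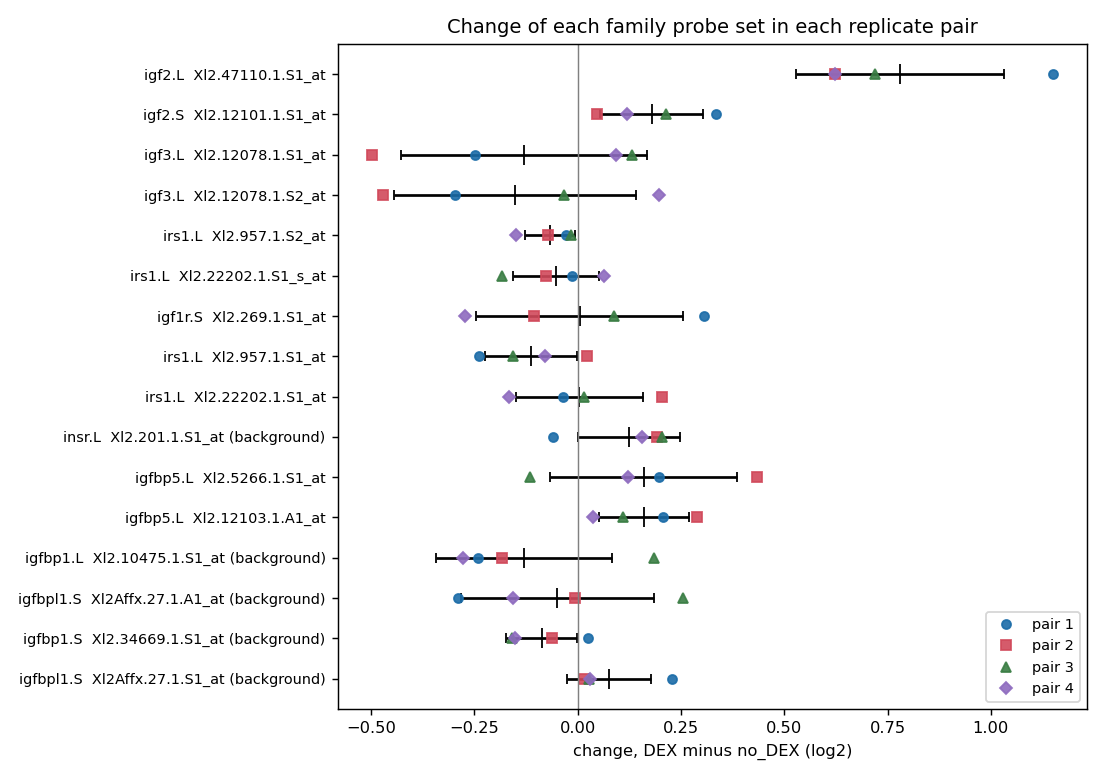
Change (log2, DEX minus no_DEX) of the 16 family probe sets in each replicate pair, ligands at the top, then receptors and adapter, then binding proteins. Coloured points are pairs 1 to 4, the tick and bar are their mean and SD, and "background" marks probe sets with a mean at or under 4.40. The igf2.L points lie between 0.62 and 1.15, and the mean of each other probe set lies within 0.2 of 0.

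The replicate number took between 33.5% and 92.8% of the spread over arrays in the 11 family probe sets above background. It has more levels than dexamethasone, so it takes a larger share even from noise alone. The sum of squares of a probe set over the 8 arrays was divided into a part for replicate number, a part for dexamethasone and a remainder. For igf2.S the number took 92.8% and dexamethasone 5.25%, and for the brighter igf3.L probe set 87.0% and 2.64%. For igf2.L the number took 43.4% and dexamethasone 52.5%, with 4.10% left. Because igf2.L was selected by its change, its dexamethasone share restates that selection. For igf1r.S the remainder was 46.7% and dexamethasone 0.0238%. For the irs1.L probe set Xl2.957.1.S1_at the number took 33.5% and dexamethasone 38.3%. For the irs1.L probe set Xl2.22202.1.S1_at the number took 35.1% and the remainder 64.8%. Over all 22220 probe sets above background the medians were 70.3% for the number, 5.79% for dexamethasone and 16.3% for the remainder. Pair means of igf2.L were highest in pair 4, at 8.42, and lowest in pair 3, at 7.48, whereas those of igf2.S were highest in pair 2, at 8.29, and lowest in pair 3 too, at 7.26. Between these lay pair 2 at 7.88 and pair 1 at 7.66 for igf2.L, and pair 4 at 7.69 and pair 1 at 7.51 for igf2.S. The order of the homeologs therefore differed only in pairs 2 and 4, which traded places. They correlated at 0.44 over the 8 arrays, a value that also takes in their changes with dexamethasone.

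**Figure D3:**
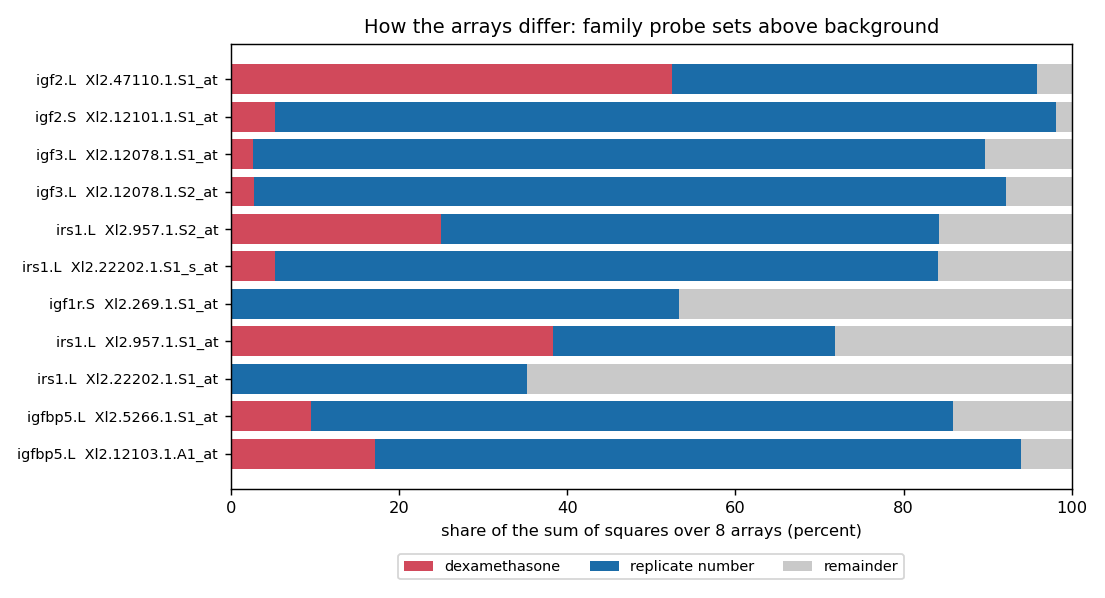
Share of the sum of squares over 8 arrays (percent) that went with dexamethasone, with the replicate number and with neither, for the 11 family probe sets above background. The dexamethasone part is widest for igf2.L, at 52.5%, a gene selected by its dexamethasone change. The number part is widest for igf2.S, at 92.8%.

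Genes whose pattern over the 8 arrays was most like that of the igf2 genes were taken from 11823 other named probe sets above background, by Pearson correlation. For igf2.L they were lims1.S, which encodes a focal adhesion adaptor (r = 0.97), 2 probe sets of the semaphorin gene sema3fl.L (0.97 each), slc9a3r1.L, which encodes a membrane scaffold protein (0.96), and phactr4.S, for a regulator of protein phosphatase 1 and actin (0.96). Their own changes were 0.14 for lims1.S, 0.30 and 0.36 for sema3fl.L, 0.18 for slc9a3r1.L and 0.28 for phactr4.S, and 0 of the 5 probe sets passed with the block. The positive sign of these changes follows from the choice by likeness to igf2.L, itself selected by its change. For igf2.S they were the ephrin gene efna4.L (r = 0.97), cgl.2.S (0.97), the paired-box gene pax3.L (0.96), dapl1.S (0.96) and the Argonaute gene ago4.L (0.96). The lists share 0 genes. With 8 arrays in pairs, such correlations describe these arrays, and the points share their replicate numbers.

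In the gene order of assembly Xenopus_laevis_v10.1, igf2.L lies next to ins.L and igf2.S next to ins.S, the insulin genes. Both were within background, with ins.L at 3.77 in DEX and 3.80 in no_DEX, and ins.S at 3.72 in DEX and 3.75 in no_DEX. Of the 5 genes on each side, 2 of 10 were measured at igf2.L and 7 of 10 at igf2.S. The other measured neighbour of igf2.L, lsp1.L, changed by −0.34 (adjusted p = 0.277 with the block). Around igf2.S the skeletal muscle troponin gene tnnt3.S stood 1.03 lower, at 2.65 in DEX and 3.68 in no_DEX, without passing (adjusted p = 0.186 with the block). Both means were under background, and only the no_DEX array of replicate 2, at 4.70, was above it. Its pairs 1 to 4 were at −1.25, −2.03, −1.03 and 0.18. The mitochondrial ribosomal protein gene mrpl23.S differed by 0.15 and LOC495455 by 0.02. The changes were −0.19 for lsp1.S, −0.08 for LOC100049737, −0.07 for cd81.S and −0.03 for ins.S. Both measured neighbours of igf2.L thus had a lower mean in DEX, as did most of those of igf2.S, without passing. For ins.L and ins.S the change was only −0.03 each and within background, so these signs carry no weight. The mean of tnnt3.S was under background too, and the changes of cd81.S and LOC100049737 were small.

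A list of 76 symbols around IGF signalling was read out, for proteins outside the cell as well as downstream of the receptor. It covered adapters and phosphatases, the PI3K, Akt and FoxO branch, mTOR and translation, Ras and MAP kinases, and extracellular and processing proteins with the IGF2 mRNA-binding proteins. Of these symbols 35 were measured, as 48 genes with their homeologs, 39 of them above background. In neither limma fit did a gene pass, 0 rising and 0 falling. Of 11303 named genes 2 passed without the block and 83 with it. With 0.00615% and 0.553% of all probe sets passing in these fits, a count of 0 among 48 genes does not set the list apart. At an unadjusted p under 0.05 the count was 0 without the block and 6 of 48 with it, where 12.5% of all probe sets reached it with the block. The median change of the list was −0.03, beside 0.006 over all named genes, and 4 genes were higher and 8 lower in 4 of 4 pairs, where 12.5% of all named genes were higher and 10.8% lower. By branch the medians were −0.05 for 11 adapters and phosphatases, −0.01 for 13 genes of PI3K, Akt and FoxO, −0.06 for 10 of mTOR and translation, 0.11 for 2 Ras and MAP kinase genes and 0.02 for 12 extracellular and processing genes.

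The genes named from this list, htra1.S and pik3r3.L at its ends, pik3r3.S and igf2bp3.S, were chosen after their values were seen. The htra1.S gene, for a secreted serine protease, averaged 7.47 in DEX and 7.12 in no_DEX, a change of 0.35 (adjusted p = 0.345 with the block). Its pairs 1 to 4 were at 0.57, 0.70, 0.26 and −0.14. The pik3r3.L gene, for a regulatory subunit of PI3K, averaged 7.14 in DEX and 7.57 in no_DEX, a change of −0.44 (adjusted p = 0.336 with the block). Its pairs 1 to 4 were at −1.15, −0.35, −0.02 and −0.22, so pair 1 weighed most in that mean. The homeolog pik3r3.S differed by −0.16, with pairs 1 to 4 at −0.38, −0.25, −0.05 and 0.04. The IGF2 mRNA-binding protein gene igf2bp3.S averaged 10.40 in DEX and 10.53 in no_DEX and was lower in 4 of 4 pairs by a mean of 0.13, without passing (adjusted p = 0.578 with the block).

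**Figure D4:**
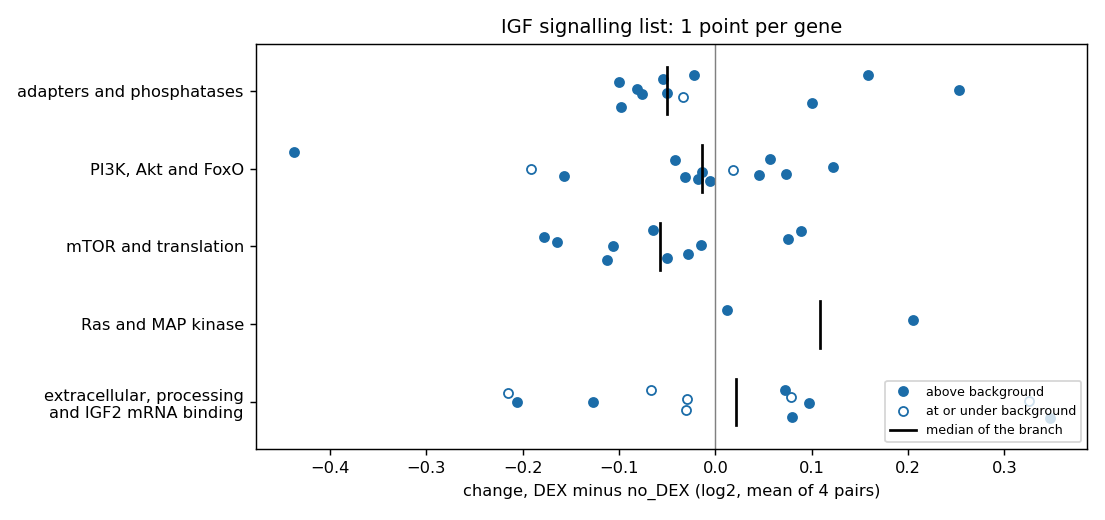
Change (log2, DEX minus no_DEX, mean of 4 pairs) of the 48 measured genes of the IGF signalling list, 1 point per gene by its brightest probe set, in 5 branches. Filled points have a mean above 4.40, open points do not, and black lines are branch medians. The points lie between −0.44 and 0.35.

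Markers of neighbouring tissues were read out as well. Of 23 measured neural plate genes, 12 were lower and 0 higher in 4 of 4 pairs, where 10.3% of all probe sets were lower and 10.9% higher. With the block, which called 0.553% of all probe sets, 2 of them fell, six6.L (adjusted p = 0.0389) and sox1.S (0.0169), but 0 without it. The summed linear signal of this list was 8007 to 10465 in DEX and 10598 to 13989 in no_DEX, and the median change was −0.17, −0.41, −0.22 and −0.44 in pairs 1 to 4. Of its genes six3.S and nrp1.L were at or under background. For 23 somitic and skeletal muscle genes the summed signal was 3448 to 5103 in DEX and 2925 to 9499 in no_DEX, with medians of −0.67, −0.94, −0.71 and 0.11 in pairs 1 to 4, and 8 genes were at or under background, among them myf6.L, myf6.S and tnnc1.L. The muscle sums of the groups overlapped, 6 of the genes were lower and 0 higher in 4 of 4 pairs, and 0 passed in either fit. With the block 1 of 7 notochord and axial genes fell, shh.L (adjusted p = 0.0156), but 0 without it. Of 15 cardiac and lateral mesoderm genes 2 fell with the block, tal1.S (0.0169) and nkx2-5.S (0.0247), but 0 without it. In 4 of 4 pairs, 2 notochord and axial genes were lower and 0 higher, and 4 cardiac and lateral mesoderm genes lower and 0 higher. Among the axial genes chrd.1.S changed by −0.75, tbxt.L by 0.28 and tbxt.S by 0.31, without passing. Endoderm markers summed to 22205 to 29790 in DEX and 17147 to 29629 in no_DEX, with medians of 0.49, 0.03, 0.10 and −0.04, and 2 probe sets, for hhex.L and frzb, were at or under background. Of these 23 endoderm genes, 8 were higher and 2 lower in 4 of 4 pairs, and 0 passed in either fit. The 11 neural crest genes summed to 5848 to 7257 in DEX and 6179 to 7020 in no_DEX. Their median changes in pairs 1 to 4 were 0.12, −0.68, −0.29 and −0.24. Of these genes, 3 were lower and 1 higher in 4 of 4 pairs. The 15 epidermis genes summed to 76145 to 84985 in DEX and 77636 to 87662 in no_DEX, with 2 lower and 1 higher. In both lists 0 passed in either fit. Endoderm markers and igf2.L both had their widest difference in pair 1. In pairs 2 to 4 the endoderm medians were 0.03, 0.10 and −0.04, and igf2.L changed by 0.62, 0.72 and 0.62. Single endoderm genes differed more widely than these medians. The cer1.S gene changed by 2.01, 0.45, 0.77 and 0.97 in pairs 1 to 4, and foxa4.L by 0.95, 0.91, 0.27 and 1.09. The 2 endoderm genes lower in 4 of 4 pairs were sox17b.1.S, by a mean of −0.15, and hhex.L, by −0.57. The part of these tissues in the igf2.L difference was not tested.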

How the data were processed

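The data were 8 Affymetrix arrays of Xenopus laevis anterior endoderm. The deposited log2 values were made with RMA, per the submitters' processing notes (version not given in the sources used here). The 96 Affymetrix controls were left out and 32539 probe sets tested. Platform annotation gave 1 symbol for 15495, several for 279 (not named) and none for 16765; the NCBI table of Xenopus_laevis_v10.1 changed 2 symbols. A gene with several probe sets was represented by the brightest.

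DEX was set against no_DEX in limma 3.58.1 (R 4.3.3; lmFit, eBayes, two-sided, Benjamini-Hochberg over all probe sets, call at an adjusted p under 0.05), without a block and with the replicate number as a block. Arrays with the same number deviated together from their group means (r = 0.63, 0.78, 0.77 and 0.69, against at most 0.20 between numbers), which counts as pairing (limit 0.1). The script was tested on simulated data. The number of arrays limits precision. All family probe sets are named, with signalling genes that passed (0 did) and the 5 probe sets most correlated with each igf2 gene; htra1.S, pik3r3.L, pik3r3.S and igf2bp3.S were chosen after their values were seen. Members and lists were chosen with earlier results of these data known. Alternatives were a filter at the highest background control, centred medians, repeated quantile normalization, trended or robust eBayes, and leaving out arrays or pairs.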

Additional observations from a re-analysis of the deposited data

How the results depend on the processing

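Over all probe sets, 2 passed without the block, against 180 with it, 150 with the block and the filter, and 169 with the block and centred medians. Leaving out 1 array gave 0 to 3 without the block, and dropping a pair with the block gave 34, 4, 26 and 120 for pairs 1 to 4. In the family 0 passed without the block. With the block alone, with the block and the filter, or with the block and centred medians, 1 passed, igf2.L. It was selected by its change in this contrast, so these calls restate that selection. With the block and 1 pair left out the count was 0 each time. No other call in the family or the signalling list changed under any alternative run. The igf2.L change was 0.62 to 0.99 with 1 array left out. The median of the binding protein genes was −0.07 and became 0.16 with the filter, which leaves igfbp5.L alone. That of the receptor and adapter genes was 0.005 and became −0.03 with the filter, which drops insr.L.

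Of the 16 family probe sets, 6 that passed in no fit turned their sign in some alternative. For igf1r.S the change was −0.00046 with centred medians, with or without the block, −0.062 to 0.082 with 1 array left out and −0.096 to 0.097 with 1 pair left out (−0.023 without pair 3). For the irs1.L probe set Xl2.22202.1.S1_at it was −0.0012 with centred medians in both fits, −0.013 with quantile normalization repeated, −0.033 to 0.048 with 1 array left out and −0.062 to 0.061 with 1 pair left out. With 1 array left out, it was −0.11 to 0.0079 for the irs1.L probe set with shared probes, −0.30 to 0.079 and −0.37 to 0.058 for the igf3.L probe sets, and −0.13 to 0.018 for the brighter igfbpl1.S probe set (−0.15 to 0.032 with 1 pair left out). With 1 pair left out, the igf3.L probe sets gave −0.22 to −0.008 and −0.27 to −0.04, and that irs1.L probe set −0.09 to −0.008. The cause was not tested. Among the 32 groups of 4 arrays, 0 held an array far from the others.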
